A study of Mus musculus with 11 samples.

Results

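The IL-17, IL-23 and CCL20 axis was followed through 9 genes in mouse airway RNA, namely Ccl20, Ccr6, Il17a, Il17c, Il17ra, Il17rc, Il23a, Csf3 and Steap4. They were taken from the 21899 genes of the deposited table by symbol, whatever their values, and all 9 were found. RNA-seq was done on 11 libraries, 3 of PBS, 4 of OVA/LPS/Vehicle and 4 of OVA/LPS/GGsTop mice, all wild-type, young adult male BALB/c mice. OVA/LPS/Vehicle mice were sensitized to ovalbumin (OVA) with alum, challenged with OVA through the nose, and then given lipopolysaccharide (LPS) by the same route and vehicle into the trachea. OVA/LPS/GGsTop mice received GGsTop in place of the vehicle. GGsTop blocks γ-glutamyl transferase, the surface enzyme that breaks down extracellular glutathione. PBS mice were not sensitized and received PBS alone. The PBS group differed from the others in OVA, alum and LPS at the same time, and no dosing of its mice into the trachea is described. These differences cannot be told apart in this design. The labels name the tissue as trachea, while the study's methods describe bluntly dissected airway from which the trachea was removed. The libraries of the OVA/LPS/Vehicle group are labelled 12, 34, 56 and 78, and whether these stand for pooled mice is not stated, so that the p-values below measure the spread between libraries.

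IL-17A is a cytokine of Th17 cells, γδ T cells and type 3 innate lymphoid cells, and IL-23 maintains these cells. IL-17A signals through a receptor made of the IL-17RA and IL-17RC chains, and epithelial cells release IL-17C, which acts on IL-17RA paired with IL-17RE. In airway epithelium and stroma IL-17 induces CCL20, G-CSF (encoded by Csf3) and neutrophil chemokines, and CCL20 attracts CCR6-bearing Th17 cells, B cells and dendritic cells. Many of these target genes also respond to other NF-κB-activating signals such as TNF, IL-1 and LPS.

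Expression was deposited as FPKM, in which fragments are scaled to exon length and to the fragments of the library, so that levels can be compared between genes. Between libraries the comparison depends on the scaling, since the FPKM total was 302550 to 319729 in PBS, 341837 to 360709 in OVA/LPS/Vehicle and 322773 to 336236 with GGsTop. Whole fragments could be recovered from the FPKM steps, and the libraries held between 14513145 and 18632385 fragments. By mean FPKM over all 11 libraries the order was Steap4 (30.03), Il17rc (13.5), Ccl20 (7.92), Il17ra (6.64), Ccr6 (1.76), Il17c (0.475), Csf3 (0.134), Il23a (0.105) and Il17a (0). This is the order of the pooled means, since in PBS Il17rc (18.4) stood above Steap4 (17.7), and Ccl20 (1.27) below Il17ra (7.82) and Ccr6 (2.29). The first 5 passed the minimum mean of 0.5 FPKM and were fitted with limma on log2(FPKM + 1) together with 14004 genes in all. A gene was called at a Benjamini-Hochberg adjusted p under 0.05 over these genes, and fold changes are on the log2(FPKM + 1) scale unless a ratio of mean FPKM is named.

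Several libraries stood apart. PBS 3 had the steepest dependence of expression on GC content, with a slope of 0.533 log2 units per 10 points of GC, against 0.0484 and 0.0611 in the other PBS libraries. Slopes of the OVA/LPS/Vehicle libraries ran from -0.261 to -0.19 and those of the GGsTop-treated group from 0.0464 to 0.108, so that GC dependence moved with the groups. Thyroid genes were present in OVA/LPS/Vehicle 12, 34 and 56, with a summed level of 93.5, 178 and 318 FPKM over 6 markers, most of it Tg (thyroglobulin), against 0.877 in OVA/LPS/Vehicle 78 and at most 1.68 in the other libraries. OVA/LPS/Vehicle 12 also held genes of immature thymocytes, with Rag1 at 8.53 FPKM and Dntt at 13.8 FPKM, whereas no other library passed 0.0976 for Rag1 or 0.301 for Dntt. All libraries held airway epithelial genes, with a summed level of 28270 to 51170 FPKM over 9 markers, most of it Scgb1a1, the club cell secretoglobin, and 1346 to 4035 FPKM without it. Markers of cartilage-bearing airway were not present in every library. The cartilage gene Acan was listed at 0 in PBS 3 and OVA/LPS/GGsTop 1 and 3, where Col2a1 was at most 0.0206 FPKM, and Krt5, a keratin of basal cells, was at 0.0977 FPKM in PBS 3 and 0.0288 FPKM in OVA/LPS/GGsTop 3. The alveolar markers, led by surfactant gene Sftpc, summed to 10370 to 16610 FPKM in PBS, 5405 to 8891 in OVA/LPS/Vehicle and 4770 to 12160 with GGsTop, so that each OVA/LPS/Vehicle library lay below every PBS library. Of 7 alveolar markers 5 had a log2 fold change below 0 in OVA/LPS/Vehicle against PBS and 2 fell, the surfactant protein gene Sftpb by 1.81 (limma adjusted p = 0.00509) and Ager by 0.94 (limma adjusted p = 0.0315, not called with GC correction), or 28.6% beside 22.1% of all genes. The part of alveolar tissue in the values below was not tested.

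Ccl20 and Steap4 rose in OVA/LPS/Vehicle compared with PBS, and Il17rc fell. The sequences just before the starts of Ccl20 and Steap4 are printed because both genes moved in the same direction and the NF-κB consensus was searched there. They are the 250 bases before the RefSeq start of each gene on the plus strand of build GRCm38.p6, at chr1:83116516-83116765 for Ccl20 and chr5:7960222-7960471 for Steap4, and capitals mark the matches to the NF-κB consensus on either strand.

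Ccl20: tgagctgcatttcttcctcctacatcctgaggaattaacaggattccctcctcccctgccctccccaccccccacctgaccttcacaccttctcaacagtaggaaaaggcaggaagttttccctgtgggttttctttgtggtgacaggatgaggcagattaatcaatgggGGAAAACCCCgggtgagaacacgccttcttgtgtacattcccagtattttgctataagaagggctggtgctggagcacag

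Steap4: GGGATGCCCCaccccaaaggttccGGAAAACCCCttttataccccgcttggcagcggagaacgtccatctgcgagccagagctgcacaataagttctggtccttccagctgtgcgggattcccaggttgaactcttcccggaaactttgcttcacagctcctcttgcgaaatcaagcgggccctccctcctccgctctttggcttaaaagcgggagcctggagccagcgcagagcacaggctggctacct

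The same NF-κB match, GGGGTTTTCC on the minus strand, lay 80 to 71 bases before the start of Ccl20 and 226 to 217 bases before that of Steap4. Steap4 held a further match, GGGATGCCCC, at 250 to 241 bases. An NF-κB match was present in 7.25% of the 32851 mouse promoter windows of the same length. The C/EBP core TTNNGNAA, found in 36.8% of the windows, occurred at 2 places before Steap4, one of which overlapped the NF-κB match, and was not found before Ccl20. Of the 6 genes with a RefSeq window, Ccr6 also held an NF-κB match before the second of its listed starts and the C/EBP core before both, while the windows of Il17rc and Il17c held neither motif and that of Il17a held the C/EBP core. These matches are descriptions of the letters and no binding was measured. Il17ra, Il23a and Csf3 had no sequence here.

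Ccl20, the only known chemokine ligand of CCR6, showed the widest range of the 5 fitted genes as a fold between the lowest and the highest library. It was at 0.607, 2.59 and 0.604 FPKM in PBS 1 to 3. In OVA/LPS/Vehicle 12, 34, 56 and 78 it was at 13.6, 26.3, 24.1 and 11.3 FPKM. OVA/LPS/GGsTop 1 to 4 had 1.36, 1.94, 0.892 and 3.85 FPKM. All 4 OVA/LPS/Vehicle libraries lay above every other library, whereas PBS and OVA/LPS/GGsTop overlapped. The means were 1.27 ± 1.14 FPKM (SD, n = 3) in PBS, 18.8 ± 7.45 (SD, n = 4) in OVA/LPS/Vehicle and 2.01 ± 1.30 (SD, n = 4) in OVA/LPS/GGsTop, and 13 to 590 fragments stood behind a value.

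**Figure D1:**
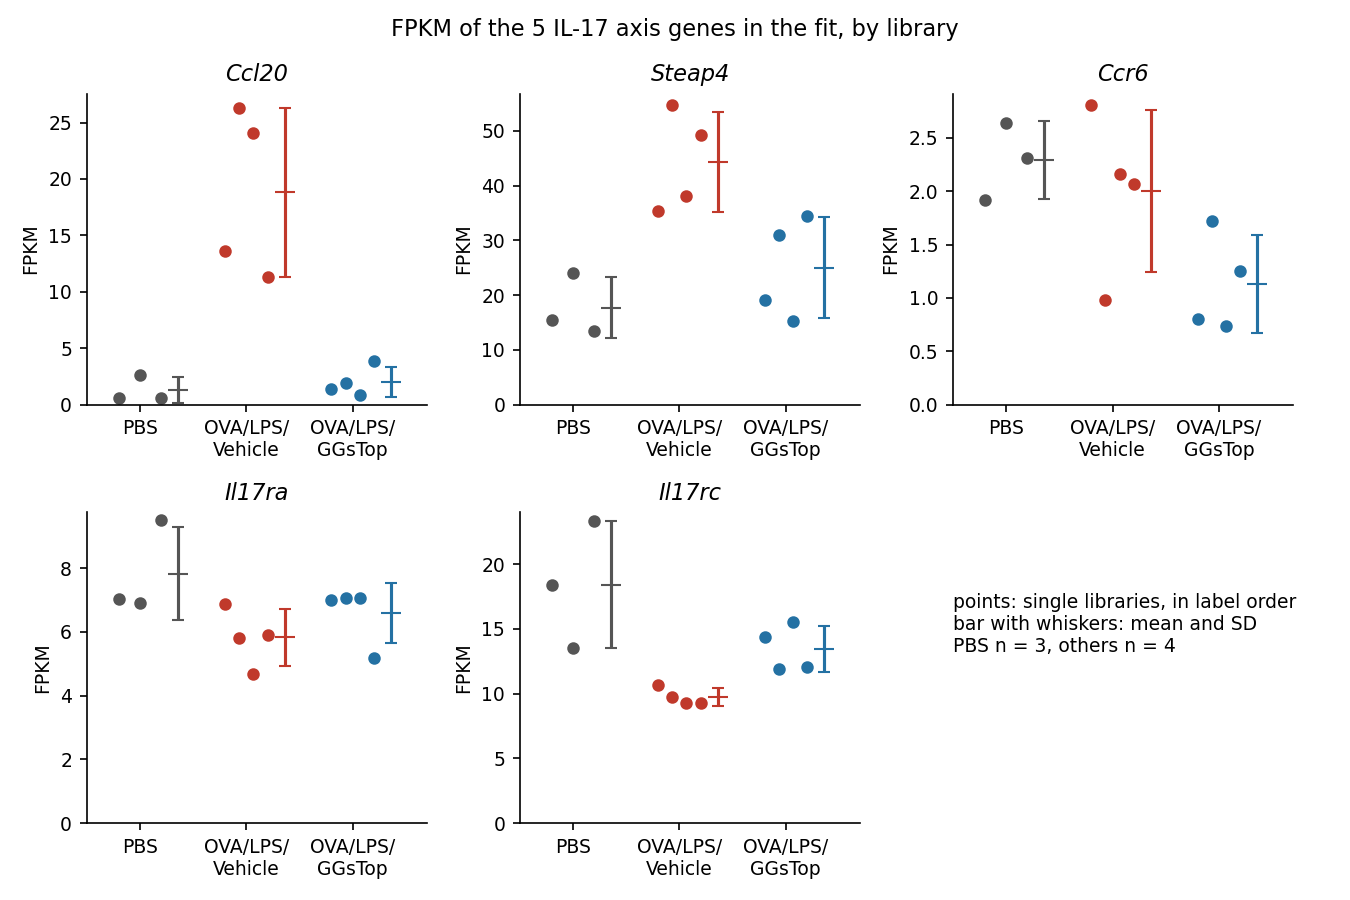
FPKM (y axis, linear, from 0) of Ccl20, Steap4, Ccr6, Il17ra and Il17rc by group (x axis). Each point is a library in label order, and the bar with whiskers is the mean and SD (PBS n = 3, both other groups n = 4). The 4 OVA/LPS/Vehicle libraries lie above all others for Ccl20 and Steap4 and below all others for Il17rc.

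The mean FPKM of Ccl20 was 14.9-fold higher in OVA/LPS/Vehicle than in PBS, with a log2 fold change of 3.16 (SE 0.39, limma adjusted p = 0.00337). It was 9.36-fold lower in OVA/LPS/GGsTop than in OVA/LPS/Vehicle, with a log2 fold change of -2.73 (SE 0.36, limma adjusted p = 0.00842). Compared with PBS, OVA/LPS/GGsTop had a log2 fold change of 0.43 (SE 0.39, limma adjusted p = 0.555), a difference about as large as its error. With a library left out this was 0.17 to 0.81 and not called. Leaving out each library in turn gave 2.96 to 3.54 for the first comparison and -2.99 to -2.54 for the second, called every time. With values corrected for GC content the log2 fold changes were 2.62 and -2.36, with limma adjusted p of 0.00663 and 0.0199. OVA/LPS/Vehicle 78, whose thyroid sum was 0.877 FPKM, had Ccl20 at 11.3 FPKM, the lowest of its group and above every PBS and OVA/LPS/GGsTop library. The libraries with the highest thyroid sums, OVA/LPS/Vehicle 34 and 56, also had the highest Ccl20, and the part of thyroid tissue in the Ccl20 values was not tested.

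Steap4, a metalloreductase of the plasma membrane and endosomes that IL-17 and TNF induce, had the highest mean of the 9 genes over all 11 libraries. Its FPKM was 15.5, 24.0 and 13.5 in PBS 1 to 3. The OVA/LPS/Vehicle libraries 12, 34, 56 and 78 had 35.4, 54.7, 38.1 and 49.2 FPKM. OVA/LPS/GGsTop 1 to 4 had 19.2, 31.0, 15.2 and 34.5 FPKM. All OVA/LPS/Vehicle values were again the highest, but OVA/LPS/GGsTop 4 came within 1 FPKM of the lowest of them. The mean was 2.51-fold higher in OVA/LPS/Vehicle than in PBS, with a log2 fold change of 1.30 (SE 0.28, limma adjusted p = 0.0076). This call was lost without PBS 3 and with GC correction together, at 0.98 (limma adjusted p = 0.0911). Between OVA/LPS/GGsTop and OVA/LPS/Vehicle the groups did not overlap, but the log2 fold change of -0.85 (SE 0.26) missed the threshold with a limma adjusted p of 0.0602. Without OVA/LPS/GGsTop 4 it was -1.03 and passed, with a limma adjusted p of 0.0409. It also passed with array weights, at -1.07 (limma adjusted p = 0.00284), and with only the compared groups, at -0.85 (limma adjusted p = 0.0408). These were the only calls, 3 in 21 fits. With GC correction the log2 fold change was -0.68 and not called (limma adjusted p = 0.149). Against PBS, OVA/LPS/GGsTop stood at 0.44 (SE 0.28, limma adjusted p = 0.392), and at 0.27 to 0.67 with a library left out, not called.

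Steap4 and Ccl20 were both high in the OVA/LPS/Vehicle libraries, and both had their highest values of PBS in PBS 2 and of OVA/LPS/GGsTop in OVA/LPS/GGsTop 4. The makeup of these libraries also differed. The cartilage and smooth muscle markers summed to 746 FPKM in PBS 2, against 535 and 571 in the other PBS libraries, and to 1082 FPKM in OVA/LPS/GGsTop 4, against 418 to 581 in the rest of its group. Krt5 was also highest of its group in both, at 12.9 and 33.1 FPKM, and the alveolar sums were the lowest of their groups, at 10370 and 4770 FPKM. The sum of 6 skeletal muscle markers was highest of its group at 47.3 FPKM in PBS 2, at 115 FPKM in OVA/LPS/Vehicle 34 and at 60.2 FPKM in OVA/LPS/GGsTop 4, which were the libraries with the most Ccl20 and Steap4 of each group. The part of this makeup in the Steap4 and Ccl20 values was not tested. Likeness was measured as the root mean square difference between log2(FPKM + 1) of 2 genes, centred and scaled to unit SD over the 11 libraries, where 0 is an identical pattern. Between Ccl20 and Steap4 it was 0.452. The 5 genes most like Ccl20 were Serpinb11 (0.257), Spryd7 (0.28), Ndufb1-ps (0.315), Sec61g (0.324) and Gm38393 (0.33). Serpinb11 had a mean of 0.406 FPKM in PBS, 4.08 in OVA/LPS/Vehicle and 0.758 in OVA/LPS/GGsTop. The 3 genes most like Steap4 were Anxa1 (0.228), Ifi202b (0.251) and Nln (0.27).

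Il17rc, the receptor chain that pairs with IL-17RA to bind IL-17A and IL-17F, had the opposite order of groups. Its FPKM was 18.4, 13.5 and 23.3 in PBS 1 to 3. In the OVA/LPS/Vehicle libraries it was 10.7, 9.73, 9.28 and 9.28 FPKM. The OVA/LPS/GGsTop libraries had 14.4, 11.9, 15.5 and 12.04 FPKM. Each OVA/LPS/Vehicle library lay below every other library, and OVA/LPS/GGsTop overlapped PBS. The log2 fold change of OVA/LPS/Vehicle against PBS was -0.82 (SE 0.16, limma adjusted p = 0.00524), and mean FPKM was 1.89-fold lower. Il17rc is GC-rich, at 62.0% of its transcript, and after GC correction the log2 fold change was -0.43 (limma adjusted p = 0.0239), while without PBS 3 and with GC correction it was -0.41 and not called (limma adjusted p = 0.0855). Between OVA/LPS/GGsTop and OVA/LPS/Vehicle the log2 fold change was 0.42 (SE 0.15, limma adjusted p = 0.0878), and 0.14 with GC correction (limma adjusted p = 0.436). It was called with the same FPKM total, at 0.51 (limma adjusted p = 0.0462), and with array weights, at 0.48 (limma adjusted p = 0.00327). With only the compared groups it was also called, at 0.42 (limma adjusted p = 0.0159). Against PBS, OVA/LPS/GGsTop stood at -0.40 (SE 0.16, limma adjusted p = 0.191), which passed without PBS 2, at -0.60 with a limma adjusted p of 0.0233. The genes most like Il17rc were Arhgap23 (0.118), Plxna1 (0.134) and Tmub2 (0.149).

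Il17ra, the chain shared by the receptors of several IL-17 family cytokines, varied less. PBS 1 to 3 had 7.04, 6.92 and 9.52 FPKM. The OVA/LPS/Vehicle libraries had 6.89, 5.80, 4.69 and 5.91 FPKM. OVA/LPS/GGsTop 1 to 4 had 7.01, 7.07, 7.08 and 5.17 FPKM. OVA/LPS/Vehicle lay just below PBS without overlap, with OVA/LPS/Vehicle 12 at 6.89 next to PBS 2 at 6.92. The log2 fold changes were -0.37 (SE 0.15, limma adjusted p = 0.0712) for OVA/LPS/Vehicle against PBS, 0.15 (SE 0.14, limma adjusted p = 0.474) from OVA/LPS/Vehicle to OVA/LPS/GGsTop and -0.22 (SE 0.15, limma adjusted p = 0.430) for OVA/LPS/GGsTop against PBS. None passed, although the first was called with every library at the same FPKM total, at -0.52 (limma adjusted p = 0.0206), and with array weights, at -0.26 (limma adjusted p = 0.0309). It was -0.22 with GC correction (limma adjusted p = 0.245) and -0.44 to -0.23 with a library left out (-0.23 without PBS 3), and not called in any of these. With a library left out the second ran from 0.07 to 0.25 and the third from -0.29 to -0.08, not called. The genes most like Il17ra were Fgr (0.247), Lgals9 (0.277) and Sergef (0.319), and its likeness to Il17rc was 0.617.

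**Figure D2:**
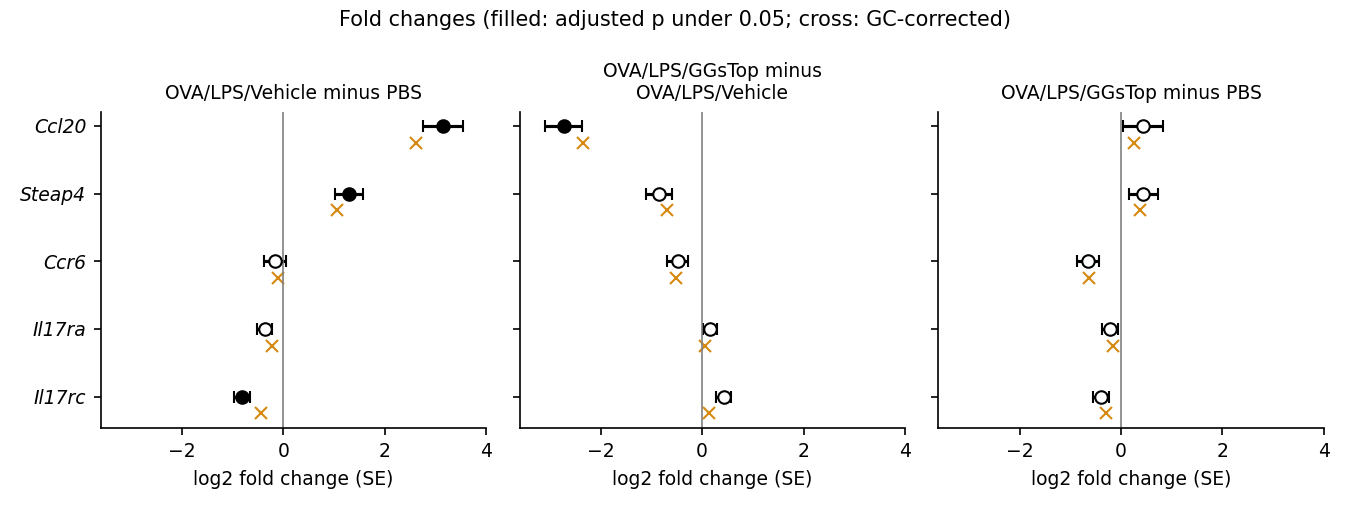
Log2 fold changes (x axis, log2(FPKM + 1) scale) of 5 IL-17 axis genes (y axis) in the 3 comparisons. Circles are limma estimates with their SE, filled where the adjusted p was under 0.05, and crosses are the GC-corrected estimates. Ccl20 is called in 2 comparisons, at 3.16 and -2.73, Steap4 and Il17rc in 1, and no gene is called between OVA/LPS/GGsTop and PBS.

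Ccr6, the CCL20 receptor, did not follow its ligand. Its FPKM was 1.92, 2.64 and 2.31 in PBS 1 to 3. In the OVA/LPS/Vehicle libraries it was 2.81, 0.982, 2.16 and 2.06 FPKM. With GGsTop it was 0.802, 1.72, 0.738 and 1.25 FPKM. All OVA/LPS/GGsTop values lay below those of all PBS libraries, whereas OVA/LPS/Vehicle spanned both groups. The log2 fold changes were -0.16 (SE 0.22, limma adjusted p = 0.565) for OVA/LPS/Vehicle against PBS, -0.48 (SE 0.20, limma adjusted p = 0.136) from OVA/LPS/Vehicle to OVA/LPS/GGsTop and -0.65 (SE 0.22, limma adjusted p = 0.135) for OVA/LPS/GGsTop against PBS. None of the 3 was called, with 27 to 101 fragments behind a value.

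The 3 genes most like Ccr6 were Fcrla (0.345), Gm7879 (0.369) and Cd79a (0.403), the last a chain of the B cell receptor complex. The summed level of 7 B cell markers was 108, 124 and 103 FPKM in PBS 1 to 3. It was 119, 40.1, 115 and 60.0 FPKM in OVA/LPS/Vehicle 12, 34, 56 and 78, and 46.8, 69.5, 35.5 and 57.0 FPKM in OVA/LPS/GGsTop 1 to 4. OVA/LPS/Vehicle 34, with the lowest Ccr6 of its group, also had the lowest B cell sum of its group, whereas OVA/LPS/Vehicle 78 had a B cell sum within the range of the GGsTop-treated libraries and Ccr6 at 2.06 FPKM. All 7 markers had a mean log2 fold change below 0 in OVA/LPS/GGsTop against PBS, with a median of -0.999. By limma and by voom 0 of 7 were called in this comparison, while 5 had an unadjusted limma p under 0.05. None of them was at 0 in all libraries, and Cd79a was the most abundant. In bulk RNA fewer cells of a type and less RNA per cell cannot be told apart, and the part of B cells in the Ccr6 values was not tested.

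**Figure D3:**
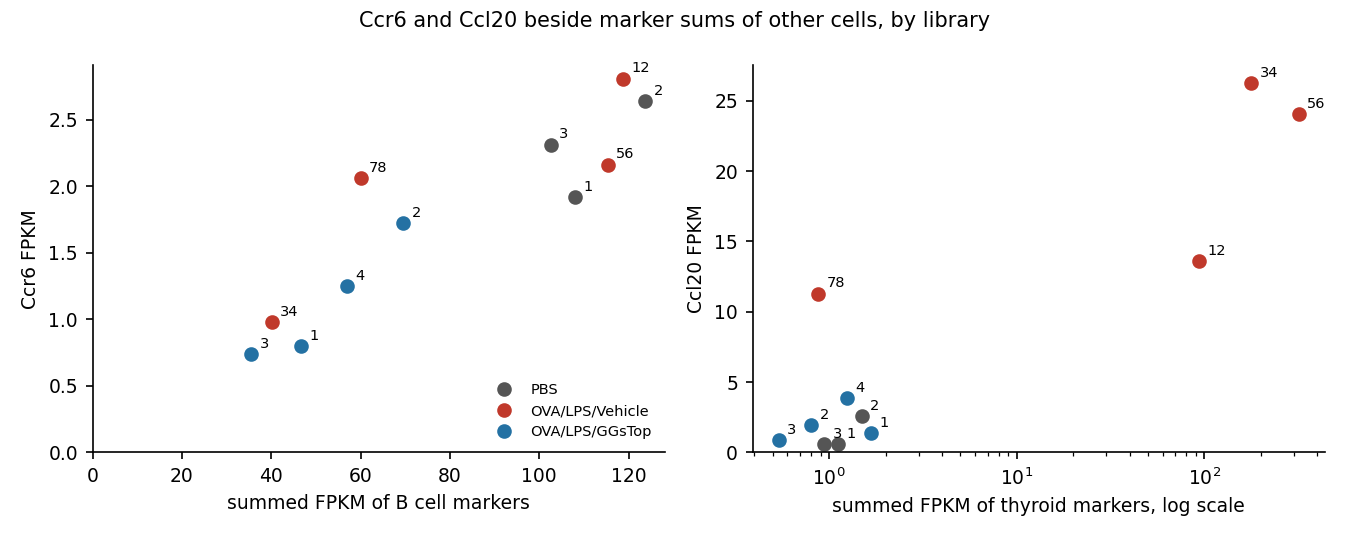
Left, Ccr6 FPKM (y axis) against the summed FPKM of 7 B cell markers (x axis). Right, Ccl20 FPKM (y axis) against the summed FPKM of 6 thyroid markers (x axis, log scale). Each point is a library marked with its label and coloured by group. Ccr6 was lowest, at 0.738, in the library with the lowest B cell sum, 35.5, and Ccl20 was at 11.3 in OVA/LPS/Vehicle 78, whose thyroid sum was 0.877.

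Among the 5 genes in the fit, 2 were called higher and 1 lower in OVA/LPS/Vehicle than in PBS. Over all genes tested 15.9% were called higher and 22.1% lower in this comparison. From OVA/LPS/Vehicle to OVA/LPS/GGsTop 0 were called higher and 1 lower, against 6.9% and 1.81% of all genes. Between OVA/LPS/GGsTop and PBS none of the 5 was called by limma or by voom on the recovered fragments, against 2.06% higher and 0.821% lower of all genes. Their unadjusted limma p were under 0.05 for Ccr6 (0.013) and Il17rc (0.0285). With so few genes these counts cannot be set apart from the background. The background itself moved with the processing. For the first comparison it was 2231 genes higher and 3096 lower, but 1232 and 4570 with the same FPKM total, 1172 and 1885 without PBS 3, and 242 and 492 without PBS 3 and with GC correction. For the second the 966 higher and 254 lower became 344 and 354 with the same median, 2026 and 155 with the same FPKM total, 20 and 4 without OVA/LPS/GGsTop 1, 25 and 10 without OVA/LPS/Vehicle 56, 46 and 16 without OVA/LPS/Vehicle 34, and 60 and 18 without OVA/LPS/GGsTop 3. For the third the 288 higher and 115 lower became 949 and 639 without PBS 2 and 21 and 7 without PBS 1. The shares given beside the lists below are those of the fit over all 11 libraries. The last 2 comparisons share the OVA/LPS/GGsTop libraries and the first 2 share the OVA/LPS/Vehicle libraries.

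The 4 cytokine genes under the filter were close to the limit of detection. Il17a was listed at 0 in all 11 libraries. A count of 0 allows up to 3 fragments, or 0.137 to 0.177 FPKM depending on the library, by counting error only, so that expression below this level was not excluded. It was 0 also in OVA/LPS/Vehicle 12, whose T cell marker sum of 115 FPKM was the highest. That library also held genes of immature thymocytes, as given above, and their part in this sum was not tested.

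Il17c, the epithelial member of the family, rested on 1 to 13 fragments per library and 59 in all. It was at 1.20, 0.0897 and 0.523 FPKM in PBS 1 to 3. In OVA/LPS/Vehicle it was at 0.359, 0.528, 0.174 and 0.666 FPKM, and in OVA/LPS/GGsTop at 0.0924, 0.479, 0.264 and 0.846 FPKM. All groups overlapped.

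Il23a, the p19 chain of IL-23, rested on 40 fragments in all, of which 12 were in PBS 1. It was at 0.355, 0.0574 and 0 FPKM in PBS 1 to 3, and at 0.144, 0.310, 0.0837 and 0.0533 FPKM in OVA/LPS/Vehicle. OVA/LPS/GGsTop 1 to 4 had 0, 0.0613, 0.0564 and 0.0301 FPKM, no more than 2 fragments in any library. OVA/LPS/GGsTop overlapped OVA/LPS/Vehicle, and PBS spanned all values.

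Csf3, which encodes the granulocyte growth factor G-CSF, rested on 33 fragments in all. It was at 0.141, 0 and 0.114 FPKM in PBS 1 to 3. OVA/LPS/Vehicle had 0.320, 0.269, 0.0888 and 0.169 FPKM, and OVA/LPS/GGsTop had 0.0940, 0.0488, 0.0897 and 0.143 FPKM. The highest values were in OVA/LPS/Vehicle 12 and 34, and the groups overlapped.

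No difference in Il17c, Il23a or Csf3 passed an exact two-sided permutation test of mean log2(FPKM + 1) over 3 comparisons each. The lowest of the 9 values were p = 0.0857 for Il23a and p = 0.114 for Csf3, both in OVA/LPS/GGsTop against OVA/LPS/Vehicle, with an adjusted p of 0.513 in the exact test. The smallest p that groups of these sizes allow is 0.0286. That value would not pass after adjustment over 9 tests unless most of them reached it, so the test says nothing about whether these genes differed.

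**Figure D4:**
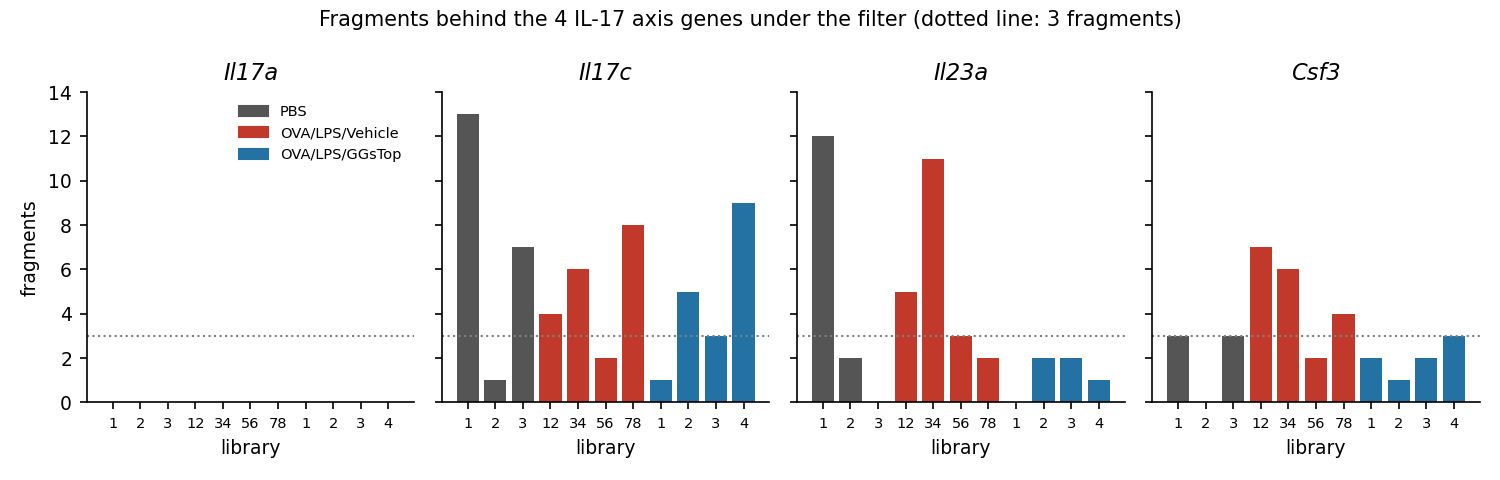
Fragments (y axis, from 0) behind Il17a, Il17c, Il23a and Csf3 in each library (x axis, label order), coloured by group. The dotted line marks 3 fragments, the limit that a count of 0 allows. Il17a has none, and no bar passes 13 fragments.

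Most of the other cytokines of the axis were also low. Of 9 Th17 and IL-17 family cytokines, 2 passed the filter. Il17f, the closest relative of Il17a, was at 0 in all PBS and OVA/LPS/GGsTop libraries and at 0.0638, 0.0626, 0 and 0.0296 FPKM in OVA/LPS/Vehicle. These values rest on very few fragments. Il17f has 2022 exon bases, and 1 fragment on 1 kb gives 0.0598 to 0.0645 FPKM in the OVA/LPS/Vehicle libraries. Il17f was under the filter and its differences were not tested. Il22, a cytokine of Th17 cells and innate lymphoid cells that acts on epithelium, was highest in PBS 3 at 0.580 FPKM and at 0 in 6 libraries. Il17d, a family member expressed outside the Th17 lineage, was the most abundant, with means of 7.23 ± 0.375 FPKM (SD, n = 3) in PBS, 4.99 ± 0.745 (SD, n = 4) in OVA/LPS/Vehicle and 5.39 ± 1.497 (SD, n = 4) in OVA/LPS/GGsTop. It fell in OVA/LPS/Vehicle against PBS by 0.47 on the log2 scale (SE 0.17, limma adjusted p = 0.0453), but this was -0.07 with GC correction (limma adjusted p = 0.794) and was not called when any of the 7 libraries was left out. Csf2, encoding GM-CSF, passed the filter without a call, at -0.25 (SE 0.28, limma adjusted p = 0.489).

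Of 12 genes for Th17-inducing cytokines and the receptors of IL-23, IL-6 and IL-1, 7 were in the fit and 2 fell in OVA/LPS/Vehicle against PBS, or 28.6% beside 22.1% of all genes. Il6st, the shared signalling chain gp130 of the IL-6 family, fell by 0.44 on the log2 scale (SE 0.10, limma adjusted p = 0.00972). Il12a, the p35 chain of IL-12, fell by 0.51 (SE 0.17, limma adjusted p = 0.0339), a call that held in 2 of 7 fits without a library and was lost without PBS 3 and with GC correction (limma adjusted p = 0.0633). Il12a was also the single gene of this list called in OVA/LPS/GGsTop against PBS, at -0.74 (SE 0.17, limma adjusted p = 0.041). This was 14.3% of the list beside 0.821% of all genes called lower. The call also held in 2 of 7 such fits, and was lost with voom (voom adjusted p = 0.0611). Il12a was not called in the 6 libraries numbered 1 to 3 of PBS and OVA/LPS/GGsTop, with the replicate number as a block (limma adjusted p = 0.116) or without it (limma adjusted p = 0.191). Its FPKM was 2.61, 2.84 and 2.15 in PBS, 1.29, 1.45, 2.14 and 1.13 in OVA/LPS/Vehicle and 1.52, 0.891, 1.34 and 0.755 in OVA/LPS/GGsTop. The Il12a values of both challenged groups lay below those of PBS. Il12b, which encodes the p40 chain common to IL-12 and IL-23, did not pass the filter at 0.0819 to 0.394 FPKM, nor did Il23r, the specific chain of the IL-23 receptor, at 0.0267 to 0.326 FPKM, nor Il6, at 0.111 to 0.417 FPKM.

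The 5 IL-17 receptor genes were all in the fit, and 3 fell in OVA/LPS/Vehicle against PBS, namely Il17re, Il17rc and Il17rd, beside 22.1% of all genes. Their median log2 fold change was -0.57, beside -0.015 for all genes. Il17re, the partner chain for IL-17C, was at 5.51, 3.61 and 6.14 FPKM in PBS. It was at 2.14, 2.21, 1.91 and 2.18 FPKM in OVA/LPS/Vehicle and at 3.86, 3.42, 4.45 and 2.98 FPKM in OVA/LPS/GGsTop. The OVA/LPS/Vehicle libraries lay close together and below all others. Il17re fell by 0.94 on the log2 scale in OVA/LPS/Vehicle against PBS (SE 0.15, limma adjusted p = 0.00366), and by 0.62 with GC correction (limma adjusted p = 0.0132), while without PBS 3 and with GC correction the value of -0.60 was not called (limma adjusted p = 0.0535). It rose by 0.58 in OVA/LPS/GGsTop against OVA/LPS/Vehicle (SE 0.14, limma adjusted p = 0.0353), but with GC correction this was 0.36 and not called (limma adjusted p = 0.122), and it was called in only 1 of the 8 fits without a library, that without OVA/LPS/GGsTop 4. Il17rd, a regulator of FGF and IL-17 signalling, fell by 0.57 in OVA/LPS/Vehicle against PBS (SE 0.17, limma adjusted p = 0.0234). This call held in 3 of the 7 fits without a library. Il17rb, which binds IL-25, was not called in any of the 3 comparisons, and its largest log2 fold change was 0.55 (SE 0.20, limma adjusted p = 0.154) in OVA/LPS/GGsTop against PBS.

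Of the 29 genes of receptor signalling and feedback, 3 rose and 8 fell in OVA/LPS/Vehicle against PBS, or 10.3% and 27.6% beside 15.9% and 22.1% of all genes, with a median log2 fold change of 0.08. Those that rose were Chuk, Elavl1 and Srsf1, an IκB kinase and a pair of RNA-binding proteins. None of these was called with GC correction, at 0.08, 0.20 and 0.12 with limma adjusted p of 0.559, 0.113 and 0.517. Rela, the p65 subunit of NF-κB, was at 52.7 ± 9.70 FPKM (SD, n = 3) in PBS, 28.9 ± 1.39 (SD, n = 4) in OVA/LPS/Vehicle and 37.6 ± 4.90 (SD, n = 4) in OVA/LPS/GGsTop. It fell by 0.83 on the log2 scale in OVA/LPS/Vehicle (SE 0.14, limma adjusted p = 0.00366), and by 0.44 with GC correction (limma adjusted p = 0.0209), a call lost when PBS 3 was left out as well (limma adjusted p = 0.0649). Traf3ip2, which encodes the adaptor that IL-17 receptors recruit, was at 5.69, 5.28 and 4.82 FPKM in PBS, at 3.22, 2.63, 2.33 and 3.07 FPKM in OVA/LPS/Vehicle and at 4.03, 3.35, 3.39 and 4.33 FPKM in OVA/LPS/GGsTop. The 3 groups did not overlap. It fell by 0.72 in OVA/LPS/Vehicle (SE 0.12, limma adjusted p = 0.00366), and by 0.62 with GC correction (limma adjusted p = 0.00969). Arid5a, which stabilizes cytokine transcripts, fell by 0.58 (SE 0.13, limma adjusted p = 0.00761). Its GC-corrected change of -0.29 was not called (limma adjusted p = 0.0657). None of the 29 was called by limma or voom in OVA/LPS/GGsTop against either group, with 9 at an unadjusted limma p under 0.05 against OVA/LPS/Vehicle and 5 against PBS. Traf3ip2 stood at 0.33 (SE 0.11, limma adjusted p = 0.0796) against OVA/LPS/Vehicle.

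**Figure D5:**
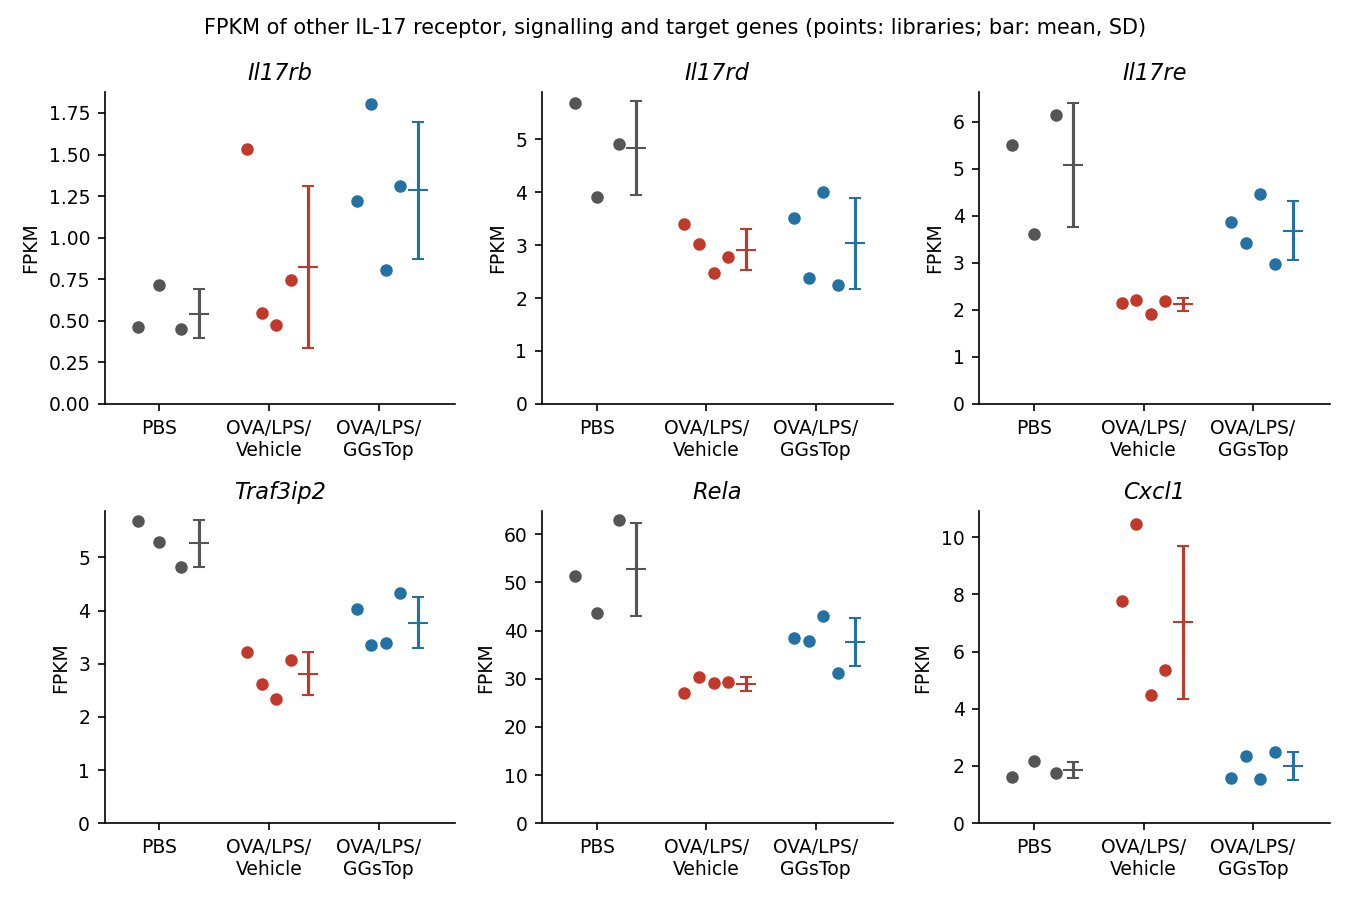
FPKM (y axis, linear, from 0) of Il17rb, Il17rd, Il17re, Traf3ip2, Rela and Cxcl1 by group (x axis). Points are libraries, and the bar with whiskers is the mean and SD (PBS n = 3, both other groups n = 4). The OVA/LPS/Vehicle libraries are the lowest for Il17re, Traf3ip2 and Rela and the highest for Cxcl1.

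Of the 40 listed IL-17 target genes of epithelium and stroma, Ccl20 and Steap4 included, 25 were in the fit. In OVA/LPS/Vehicle against PBS 13 rose and 3 fell, or 52% and 12% beside 15.9% and 22.1% of all genes, with a median log2 fold change of 0.90. Among those that rose, Cxcl2 and Muc5ac had means of 0.333 and 0.195 FPKM in PBS. They passed the filter of 0.5 FPKM only through challenged groups, where they were high, so their place in the 52% carries no weight. Cxcl5, a neutrophil chemokine of epithelial cells, was at 4.24, 3.67 and 0.893 FPKM in PBS, at 39.0, 72.6, 54.3 and 73.7 FPKM in OVA/LPS/Vehicle and at 0.428, 1.92, 0.442 and 2.94 FPKM in OVA/LPS/GGsTop. It rose by 4.04 (SE 0.43, limma adjusted p = 0.00236) in OVA/LPS/Vehicle against PBS and fell by 4.74 (SE 0.40, limma adjusted p = 0.0012) in OVA/LPS/GGsTop against OVA/LPS/Vehicle. Cxcl1, a further ligand of the neutrophil receptor CXCR2, had means of 1.85 ± 0.283 FPKM (SD, n = 3), 7.02 ± 2.68 (SD, n = 4) and 1.997 ± 0.491 (SD, n = 4) in the same order of groups. It rose by 1.44 (SE 0.23, limma adjusted p = 0.00365) and fell by 1.38 (SE 0.21, limma adjusted p = 0.0131) in the same comparisons. The second call was lost without OVA/LPS/GGsTop 1, at -1.31 (limma adjusted p = 0.0639).

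With GGsTop, 4 of the 25 target genes fell and 0 rose compared with OVA/LPS/Vehicle, all of them chemokines, namely Cxcl5, Ccl20, Cxcl1 and Cxcl2, or 16% beside 1.81% of all genes, a background that a single library could move as given above. The median log2 fold change of the 25 was -0.25, beside 0.031 for all genes. Cxcl2 fell by 1.02 (SE 0.20, limma adjusted p = 0.0204), from a mean of 1.85 to 0.361 FPKM, and by 0.87 with GC correction, which was not called (limma adjusted p = 0.0507). With a mean of 0.333 FPKM in PBS, it passed the filter of 0.5 FPKM only through OVA/LPS/Vehicle, where it was high. Its place in the 16% therefore carries no weight. The other 21 were not called, Steap4 among them. Lcn2, which encodes the antibacterial protein lipocalin 2, was at 19.98 ± 6.87 FPKM (SD, n = 3) in PBS, 37.9 ± 12.01 (SD, n = 4) in OVA/LPS/Vehicle and 29.1 ± 11.8 (SD, n = 4) in OVA/LPS/GGsTop and was not called in any comparison. With GC correction its log2 fold change of 1.14 in OVA/LPS/Vehicle against PBS passed (limma adjusted p = 0.037).

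The mucin genes had another pattern. Muc5ac and Muc5b, the gel-forming mucins of the airway, were the 2 target genes called in OVA/LPS/GGsTop against PBS. Both were higher, or 8% beside 2.06% of all genes. With a mean of 0.195 FPKM in PBS, Muc5ac passed the filter of 0.5 FPKM only through the challenged groups, where it was high. Its place in the 8% therefore carries no weight. Muc5ac was at 0.0556, 0.420 and 0.110 FPKM in PBS. It was at 7.21, 8.03, 3.38 and 11.5 FPKM in OVA/LPS/Vehicle and at 7.84, 10.5, 1.51 and 23.8 FPKM in OVA/LPS/GGsTop, so that both challenged groups lay above PBS and overlapped each other. Its log2 fold change was 2.75 (SE 0.60, limma adjusted p = 0.00772) in OVA/LPS/Vehicle against PBS, 2.91 (SE 0.60, limma adjusted p = 0.0302) in OVA/LPS/GGsTop against PBS and 0.16 (SE 0.56, limma adjusted p = 0.871) between the challenged groups. Muc5b stood at 3.11 (SE 0.72, limma adjusted p = 0.0452) in OVA/LPS/GGsTop against PBS, although the groups overlapped, with 9.46 FPKM in OVA/LPS/GGsTop 3 and 13.0 FPKM in PBS 2. In this comparison all 9 airway epithelial markers had a log2 fold change above 0. Foxj1, a factor of ciliated cells, at 1.78 (limma adjusted p = 0.00965), and Tff2, at 4.20 (limma adjusted p = 0.0372), were called. This was 22.2% beside 2.06% of all genes, and voom called 1 of the 9. The part of these cells in the mucin values was not tested. The calls against PBS in OVA/LPS/GGsTop held in 3 of 7 fits without a library for Muc5ac and in 2 of 7 for Muc5b. With voom the Muc5ac call was lost (voom adjusted p = 0.103). Saa3, an acute phase protein of epithelium and macrophages, had the same order, at 1.60 (SE 0.43) in both challenged groups against PBS, with limma adjusted p of 0.0151 in OVA/LPS/Vehicle and 0.0665 in OVA/LPS/GGsTop.

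Csf3r, the G-CSF receptor of neutrophils, was at 25.6 ± 12.5 FPKM (SD, n = 3) in PBS, 13.1 ± 3.75 (SD, n = 4) in OVA/LPS/Vehicle and 18.8 ± 4.04 (SD, n = 4) in OVA/LPS/GGsTop. PBS 3 raised the PBS mean, at 39.8 FPKM against 20.4 and 16.5 FPKM in PBS 1 and 2. With Stat5b, Stat3 and Socs3, which act downstream of it and of many other cytokine receptors, it made 4 of 6 genes of the G-CSF list that fell in OVA/LPS/Vehicle against PBS, or 66.7% beside 22.1% of all genes. Csf3r fell by 0.86 (SE 0.31, limma adjusted p = 0.0456), Socs3 by 0.83 (SE 0.28, limma adjusted p = 0.0363), Stat5b by 0.36 (SE 0.09, limma adjusted p = 0.014) and Stat3 by 0.36 (SE 0.11, limma adjusted p = 0.0269). The Socs3 call held in 3 of 7 fits without a library, with -0.48 (limma adjusted p = 0.165) without PBS 3, and the Stat3 call in 4 of 7, with -0.23 (limma adjusted p = 0.0645) without PBS 3. None of the 4 was called with GC correction, and 0 of the 6 were called by limma or voom in the comparisons with OVA/LPS/GGsTop, where 2 had an unadjusted limma p under 0.05 against OVA/LPS/Vehicle and 0 against PBS.

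Over all 8 pathway lists, 73 genes other than the 9 were in the fit. In OVA/LPS/Vehicle against PBS 17 of them rose and 20 fell, or 23.3% and 27.4%, beside the 15.9% and 22.1% of all genes. After rescaling every library to 1 common FPKM total, which moved the median of all genes to -0.15, the split was 13 to 25, and with the same median it was 20 to 16. The count of 37 called was 23 with GC correction, 19 without PBS 3, and 6 without PBS 3 and with GC correction. From OVA/LPS/Vehicle to OVA/LPS/GGsTop 1 rose and 3 fell, or 1.37% and 4.11%, beside 6.9% and 1.81% of all genes. That count of 4 was between 1 and 6 with a library left out, and at 2 or fewer without OVA/LPS/Vehicle 34 or 56 or without OVA/LPS/GGsTop 1, 2 or 3. Against PBS, 2 rose and 1 fell in OVA/LPS/GGsTop, or 2.74% and 1.37%, near the 2.06% and 0.821% of all genes. This became 12 calls without PBS 2, 8 without OVA/LPS/GGsTop 3 and 1 without OVA/LPS/GGsTop 4. It became 0 without PBS 1, PBS 3, OVA/LPS/GGsTop 1 or OVA/LPS/GGsTop 2. Cxcl2 counts in the 23.3% and the 4.11%, and Muc5ac in the 23.3% and the 2.74%. Both passed the filter only through challenged groups, where they were high, so their place in these shares carries no weight.

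Of the 10 Th17 transcription factor genes, Runx1, Hif1a and Maf rose in OVA/LPS/Vehicle against PBS and Stat3 fell, or 30% and 10% beside 15.9% and 22.1% of all genes. All of them are also expressed outside T cells. Runx1 rose by 0.74 (SE 0.15, limma adjusted p = 0.00543), Hif1a by 0.89 (SE 0.20, limma adjusted p = 0.00857) and Maf by 0.57 (SE 0.14, limma adjusted p = 0.0109). Each of the 3 was also called with GC correction, Hif1a at 0.46, but not without PBS 3 and with GC correction together, where the limma adjusted p were 0.0532 for Runx1, 0.103 for Hif1a and 0.0678 for Maf.

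Markers of cells that can carry the axis were set beside these values. Of 10 T cell markers none was called by limma or voom in any comparison, with 1 at an unadjusted limma p under 0.05 in 1 comparison, and their sum was 20.3 to 57.7 FPKM outside OVA/LPS/Vehicle 12. All 10, markers of cells that can also carry Ccr6, had a log2 fold change below 0 in OVA/LPS/GGsTop against each of the other groups, with medians of -0.58 against OVA/LPS/Vehicle and -0.43 against PBS. Of 7 dendritic cell markers only Ccr7 was called. Against PBS it fell by 1.20 in OVA/LPS/Vehicle (SE 0.21, limma adjusted p = 0.00397) and by 1.43 in OVA/LPS/GGsTop (SE 0.21, limma adjusted p = 0.01). This was 14.3% beside 22.1% and 0.821% of all genes called lower. Of the 7 markers, 5 and 4 had a log2 fold change above 0 in these comparisons. Of 10 markers of γδ T cells and type 3 innate lymphoid cells 8 were in the table, and they moved in different directions. Cd163l1, a scavenger receptor family gene of γδ T cells, fell in OVA/LPS/Vehicle against PBS by 0.78 (SE 0.15, limma adjusted p = 0.00497) and rose in OVA/LPS/GGsTop against OVA/LPS/Vehicle by 0.53 (SE 0.14, limma adjusted p = 0.0408), neither of them called with GC correction. Il7r, the IL-7 receptor of lymphocytes, rose in OVA/LPS/Vehicle against PBS by 0.72 (SE 0.25, limma adjusted p = 0.0409), and stood at 0.25 with GC correction (limma adjusted p = 0.396). Ncr1, a receptor of natural killer cells and some innate lymphoid cells, fell in OVA/LPS/GGsTop against OVA/LPS/Vehicle by 0.54 (SE 0.14, limma adjusted p = 0.0406) and was not called with GC correction, at -0.35 (limma adjusted p = 0.162). Against PBS it fell by 0.80 (SE 0.15, limma adjusted p = 0.024). Of 9 airway epithelial markers, Tff2, Foxj1, Scgb3a2 and Epcam rose in OVA/LPS/Vehicle against PBS and 0 fell, or 44.4% beside 15.9% of all genes called higher, and none was called by limma or voom in OVA/LPS/GGsTop against OVA/LPS/Vehicle, the comparison in which Ccl20 fell, with 1 at an unadjusted limma p under 0.05. Epcam was at 32.9 ± 3.76 FPKM (SD, n = 3) in PBS, 50.4 ± 6.42 (SD, n = 4) in OVA/LPS/Vehicle and 46.6 ± 10.4 (SD, n = 4) in OVA/LPS/GGsTop. Of 9 neutrophil markers in the fit 8 had a log2 fold change above 0 in OVA/LPS/Vehicle against PBS, of which the granule protein genes Camp, at 0.61, Ngp, at 1.001, and Ltf, at 3.69, were called by limma, or 33.3% beside the same 15.9%, while Csf3r fell. The Ltf call was lost with GC correction (limma adjusted p = 0.0516). Camp was also called higher in OVA/LPS/GGsTop against PBS, at 0.80 (limma adjusted p = 0.0262), but not by voom. The neutrophil markers without Ltf, which airway glands also express, summed to 108 to 353 FPKM in PBS, 143 to 266 in OVA/LPS/Vehicle and 152 to 303 in OVA/LPS/GGsTop, and so overlapped. The part of these cells in the values of the axis was not tested.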

How the data were processed

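Poly(A) RNA of 11 airway libraries was sequenced. The submitters' processing notes name cutadapt 1.15, HISAT2 2.0.5, HTSeq 0.9.1 and the mouse build mm39, and the study tested its genes with DESeq. The authors deposited FPKM, 1 column for each library, with no other scaling. Gene coordinates of the authors' build were not used here. Gene symbols, exon lengths and GC content came from GENCODE M21 on GRCm38, and a symbol was found for 21795 genes. Multiplied by exon length, FPKM came in whole steps, within 0.05 fragments and checked below 1000 fragments, in every library for 98.2% of genes, and the steps gave the fragments per library. Intervals and limits of detection from these fragments cover counting error only.

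Labels gave the 3 groups, and each pair of groups was compared. Genes averaging 0.5 FPKM or more were fitted on log2(FPKM + 1) by limma 3.58.1 in R 4.3.3 over all 11 libraries, with a mean-variance trend, and p-values were two-sided and Benjamini-Hochberg adjusted. The 9 genes, the pathway and marker lists and the tests were chosen with earlier results of these data known. The genes named are the 9, the 3 genes of lowest p per pathway list and comparison, up to 5 genes of a marker list by mean FPKM, and the genes most like each fitted gene of the 9. Il17f, Il22, Il12b, Il23r, Il6, Cxcl2, Lcn2, Elavl1, Srsf1, Csf3r, Cd163l1, Ncr1, Epcam, Tff2, Foxj1, Scgb3a2, Rag1, Dntt, Krt5, Col2a1, Camp, Ngp and Ltf were named outside this rule after their values were seen. The result of 1 listed gene is not reported here. For members of the 9 under this minimum, group means of log2(FPKM + 1) were compared by exact permutation, two-sided, with adjustment over 9 tests.

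GC dependence was removed library by library with a natural spline (5 degrees of freedom) on the deviations from gene means, centred so that the scale of a library stayed. Also tried were 0.1 as pseudocount, a filter at 1 FPKM or no filter, 3 rescalings of the libraries, array weights, a robust fit, no trend, only the compared groups, each library left out in turn, and limma voom on the recovered fragments. Voom called 2347 genes higher and 3079 lower in OVA/LPS/Vehicle against PBS, 933 and 224 from OVA/LPS/Vehicle to OVA/LPS/GGsTop, and 235 and 89 in OVA/LPS/GGsTop against PBS. The fit without PBS 3 and with GC correction, and that of the 6 libraries without the block described below, were added after seeing the data. PBS and OVA/LPS/GGsTop share the numbers 1 to 3, and the deviations of same-numbered libraries from their group means correlated with r = 0.158, 0.624 and 0.401 across genes, so that a paired fit was also run. The pairing rests on the data alone, and PBS 1 correlated with OVA/LPS/GGsTop 3 at 0.419. This fit used the 6 numbered libraries alone, without OVA/LPS/GGsTop 4. With the replicate block 90 genes were called higher and 32 lower in OVA/LPS/GGsTop against PBS, against 20 and 3 in the same 6 libraries without it and 288 and 115 over all 11 libraries.

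On simulated data with 13755 genes for the comparison of OVA/LPS/GGsTop with OVA/LPS/Vehicle, 145 of 200 genes changed by a log2 fold change of 1 were recovered with 12 false calls, and 197 of 200 changed by 2 with 17 false calls. The simulated counts had a common dispersion for all genes and no differences in GC dependence or makeup between libraries. These rates therefore need not hold for the real libraries. Promoter sequences came from RefSeq on GRCm38.p6, and their coordinates are not those of mm39. Python 3.11.15 with numpy 2.4.6, pandas 2.3.3 and matplotlib 3.10.9 served for the rest.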

Additional observations from a re-analysis of the deposited data

Results flagged for a closer look

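Among 76 values of groups of 4 libraries that were tested for a library far from the others, 2 stood out, or 2.63%, where chance gives about 1 in 20. Il17ra was at 5.17 FPKM in OVA/LPS/GGsTop 4, while the other libraries of the group lay between 7.01 and 7.08 FPKM. Chuk was at 21.1 FPKM in OVA/LPS/GGsTop 1, while the other libraries of the group lay between 17.5 and 18.0 FPKM.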

How the results depend on the processing

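The calls of Ccl20 in OVA/LPS/Vehicle against PBS (log2 fold change 2.62 to 4.16) and in OVA/LPS/GGsTop against OVA/LPS/Vehicle (-3.34 to -2.36) held in all 21 fits that were run of each. Of the 9 genes, 3 were called in OVA/LPS/Vehicle against PBS, 3 with any single library left out, and 1 without PBS 3 and with GC correction. From OVA/LPS/Vehicle to OVA/LPS/GGsTop the count of 1 was 2 with the same FPKM total, 3 with array weights, 3 with only the compared groups and 1 to 2 with a library left out. Between OVA/LPS/GGsTop and PBS the count of 0 was 1 with array weights and 0 to 1 with a library left out, and it was 0 with the replicate block. For the pathway genes, 37 were called in OVA/LPS/Vehicle against PBS, 23 with GC correction, 19 to 42 with a library left out, and 6 without PBS 3 and with GC correction. The 4 called in OVA/LPS/GGsTop against OVA/LPS/Vehicle became 12 with the same FPKM total, 28 with array weights, 21 with only the compared groups, 2 with GC correction and 1 to 6 with a library left out. The 3 called in OVA/LPS/GGsTop against PBS became 0 with no filter, 20 with array weights, 0 with only the compared groups, 5 with GC correction, 1 with voom, 0 to 12 with a library left out, 0 without PBS 3 and with GC correction, 2 with the replicate block, which was fitted to the 6 libraries of PBS and OVA/LPS/GGsTop numbered 1 to 3, and 0 in these 6 without the block. The causes were not tested.

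Signs turned in 14 single-gene values, none of them called. Against PBS in OVA/LPS/GGsTop, Ccl20 was -0.014 with the replicate block and GC correction, Csf2 was 0.13 without PBS 3, 0.038 without OVA/LPS/GGsTop 1 and 0.14 without PBS 3 and with GC correction, and Csf3r was 0.0072 without PBS 3 and 0.00488 without PBS 3 and with GC correction. In OVA/LPS/Vehicle against PBS, Ccr6 was 0.023 without OVA/LPS/Vehicle 34, and Csf2 was 0.029 with array weights and 0.0075 without PBS 3. From OVA/LPS/Vehicle to OVA/LPS/GGsTop, Csf2 was -0.0475 with array weights, and Il17d was -0.000421 with array weights, -0.21 with GC correction, -0.016 without OVA/LPS/Vehicle 12 and -0.074 without OVA/LPS/GGsTop 3. With a library left out, the ranges were -0.29 to 0.023 for Ccr6 and -0.42 to 0.0075 for Csf2 in OVA/LPS/Vehicle against PBS, -0.074 to 0.18 for Il17d from OVA/LPS/Vehicle to OVA/LPS/GGsTop, and -0.30 to 0.13 for Csf2 and -0.60 to 0.0072 for Csf3r between OVA/LPS/GGsTop and PBS. Counting each gene, comparison and alternative once, 1309 other single-gene values kept their sign and side of the threshold, 61 gained a call and 92 lost one. Il17ra gained one in OVA/LPS/Vehicle against PBS with the same FPKM total and with array weights. The 4 genes under the filter rest on at most 13 fragments per library, which limits what can be seen of them.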
